A study of Mus musculus with 4 samples.

Results

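The genes described here encode the oxidative phosphorylation machinery of mouse liver: the 4 complexes of the mitochondrial electron transport chain and the ATP synthase, together with some factors that assemble them. The rule of choice was the name alone. It took every probe set whose single annotated gene symbol begins with Nduf (complex I), Sdh but not Sdhaf (complex II), Uqcr (complex III), Cox (complex IV) or Atp5 (complex V). It found 76 genes of 8251 named on the array, with 104 probe sets of 12422 that were not controls. Another 11 probe sets that carry several symbols were left out. Both PEPCK-TAg and WT animals were male B6SJL hybrid mice 58 to 60 days old that had eaten freely, for 4 weeks after weaning, a diet of 10% protein and 70% carbohydrate. The PEPCK-TAg mice carry a transgene in which the promoter of the gene for phosphoenolpyruvate carboxykinase (PEPCK, Pck1), active in liver and in some other tissues, drives SV40 large T and small t antigens. The series title calls the exposure to these oncoproteins chronic and low. The WT mice carry no transgene. Total liver RNA was measured on 2 MG_U74Av2 arrays of each group, with nothing in the labels to show that a pair came from separate animals. The p-values therefore reflect the variation among these 4 arrays alone, which could be technical.

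Electrons from NADH enter the chain at complex I and those from succinate at complex II, pass by ubiquinone to complex III and by cytochrome c to complex IV, and are there given to oxygen. Complexes I, III and IV pump protons, and complex V uses the returning protons to make ATP. A few core subunits of complexes I, III, IV and V are encoded in the mitochondrial genome and the rest in the nucleus. Those complexes need products of both, while complex II is encoded wholly in the nucleus. Hepatocytes are rich in mitochondria and spend this ATP on gluconeogenesis, urea synthesis and protein secretion. None of the 13 mitochondrially encoded subunits had a probe set annotated here, so the values below are those of nuclear genes.

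Values are MAS5 signals, a brightness per probe set on a linear scale that the authors' software derives from the probes of the set. All 4 arrays had the same trimmed mean, 250.2. The arrays shared chip lot and fluidics station, and each had a fluidics module and a scan time of its own. Over the tested probe sets, log2 signals correlated with r = 0.966 between the PEPCK-TAg arrays, 0.965 between the WT arrays and 0.896 to 0.914 between groups. RNA quality was read from control probe sets at either end of a transcript. The 3'/5' quotient was 5.06 and 4.79 for actin on the PEPCK-TAg arrays, against 4.87 and 4.06 on the WT arrays. For Gapdh it was 3.36 and 2.95 on the PEPCK-TAg arrays, against 3.67 and 3.80 on the WT arrays. Albumin (Alb), the main hepatocyte product, had signals of 13339 and 12446 on the PEPCK-TAg arrays, against 16723 and 14429.7 on the WT arrays. Pck1, whose promoter drives the transgene, had 1605 and 566 on the PEPCK-TAg arrays, against 2372 and 2308 on the WT arrays (log2 change -1.28 ± 0.43 (SE), limma adjusted p = 0.121).

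Of the 104 probe sets, 76 (67 genes) were bright enough to be tested, and 7 of them, of 7 genes, fell in PEPCK-TAg livers while none rose. These were Ndufb9, Ndufb10, Ndufa3 and the assembly factor Ndufaf4 of complex I, Uqcr11 of complex III, Cox6c of complex IV and Atp5d of complex V, with folds of 0.461 to 0.597 over WT. The test was limma's on log2(signal + 13) with Benjamini-Hochberg adjustment over all 7453 tested probe sets and a threshold of 0.05. In that fit 3.07% of all tested probe sets were called lower and 6.40% higher, against 9.21% and 0% of the tested members. Before adjustment, at p under 0.05, 15 members were lower and 2 higher, beside 11.0% and 15.5% of all tested probe sets. Leaving out 1 array lost most of these calls: 0 members were called without WT 2 and 1 without each of PEPCK-TAg 1, PEPCK-TAg 2 and WT 1. In liver tissue as a whole, fewer cells of a type and less RNA per cell cannot be told apart.

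Promoters of nuclear genes for these complexes are known to hold sites for the factors NRF1, GABP and YY1. RefSeq windows from 250 bases before to 50 after the start (build GRCm38.p6) were matched for 61 of the 76 genes, among them 5 of the 7 that fell. They were searched on both strands for GCGCA and GCGC with any 1 base between them (NRF1), CCGGAAG (GABP) and AANATGGC (YY1), none of which lies within another. The NRF1 letters stood in 19.4% of 67 member windows and 4.60% of all 32851 windows, the GABP letters in 29.9% and 8.86%, and the YY1 letters in 20.9% and 6.05%. Among protein-coding windows alone the shares were 6.38%, 11.6% and 6.37%. Of 6 windows of called genes, 1 held the NRF1 letters, 1 the GABP letters and 2 the YY1 letters. One called gene is shown for each motif, with the matched letters in capitals; a match is a description of the letters and no measured binding site. The windows are chr10:80406772-80407071 on the minus strand for Uqcr11 (GABP), chr4:24897833-24898132 on the plus strand for Ndufaf4 (NRF1) and chr7:3617123-3617422 on the plus strand for Ndufa3 (YY1).
Uqcr11: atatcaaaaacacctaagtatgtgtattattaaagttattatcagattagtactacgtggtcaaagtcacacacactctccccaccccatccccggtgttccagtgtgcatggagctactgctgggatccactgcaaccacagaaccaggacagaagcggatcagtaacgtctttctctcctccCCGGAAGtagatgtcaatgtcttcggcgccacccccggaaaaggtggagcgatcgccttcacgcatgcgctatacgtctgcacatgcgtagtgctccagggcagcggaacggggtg
Ndufaf4: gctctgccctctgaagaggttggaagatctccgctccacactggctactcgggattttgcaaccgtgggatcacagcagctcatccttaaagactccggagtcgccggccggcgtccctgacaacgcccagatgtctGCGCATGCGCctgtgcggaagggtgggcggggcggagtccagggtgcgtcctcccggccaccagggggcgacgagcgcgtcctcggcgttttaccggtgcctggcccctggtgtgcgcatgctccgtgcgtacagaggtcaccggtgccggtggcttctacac
Ndufa3: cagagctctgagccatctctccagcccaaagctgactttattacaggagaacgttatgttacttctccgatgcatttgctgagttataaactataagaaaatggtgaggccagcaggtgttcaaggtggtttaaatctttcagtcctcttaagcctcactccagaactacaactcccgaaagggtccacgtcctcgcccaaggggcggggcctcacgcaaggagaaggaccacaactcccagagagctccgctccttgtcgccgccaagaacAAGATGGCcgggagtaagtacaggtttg

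The wider set of members leaned the same way by a small amount. Of the 76 tested, 57 had a log2 change below 0 (75%, against 49.5% of all tested probe sets), and the median was -0.16 where the median over all tested probe sets was 0.01. Both PEPCK-TAg signals lay below both WT signals for 39 members (51.3%, beside 26.3% of all tested probe sets) and above them for 5 (6.58%, beside 30.2%), and the other 32 overlapped. The mean log2 signal over the tested members was 9.17 and 9.05 on the PEPCK-TAg arrays, against 9.32 and 9.33 on the WT arrays, so the gap between the 2 PEPCK-TAg arrays was nearly as large as that between PEPCK-TAg 1 and WT 1. PEPCK-TAg 2 was below PEPCK-TAg 1 for 57 of the 76 members (75%), and for 50.6% of all tested probe sets. The lean stayed below 0 under other scalings, but its size changed with them. Relative to the median of all tested probe sets, the members' median was -0.17 with the signals as deposited or centred on each array's median. It was -0.05 after quantile normalization and -0.06 after cyclic loess. The SD between arrays of the members' median was 0.0625, larger than the size of these last 2 values. Centring on the array medians itself moved the median of all tested probe sets to -0.14. By complex, the median log2 change itself, not relative to all tested probe sets, was also read under centring, quantile normalization and cyclic loess. It ranged from -0.33 to -0.14 in complex I, from -0.40 to -0.09 in II and from -0.28 to 0.03 in III. In IV it ranged from -0.27 to -0.04 and in V from -0.28 to -0.07. The lowest value of each complex came from centring, where all tested probe sets had the median of -0.14.

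**Figure D1:**
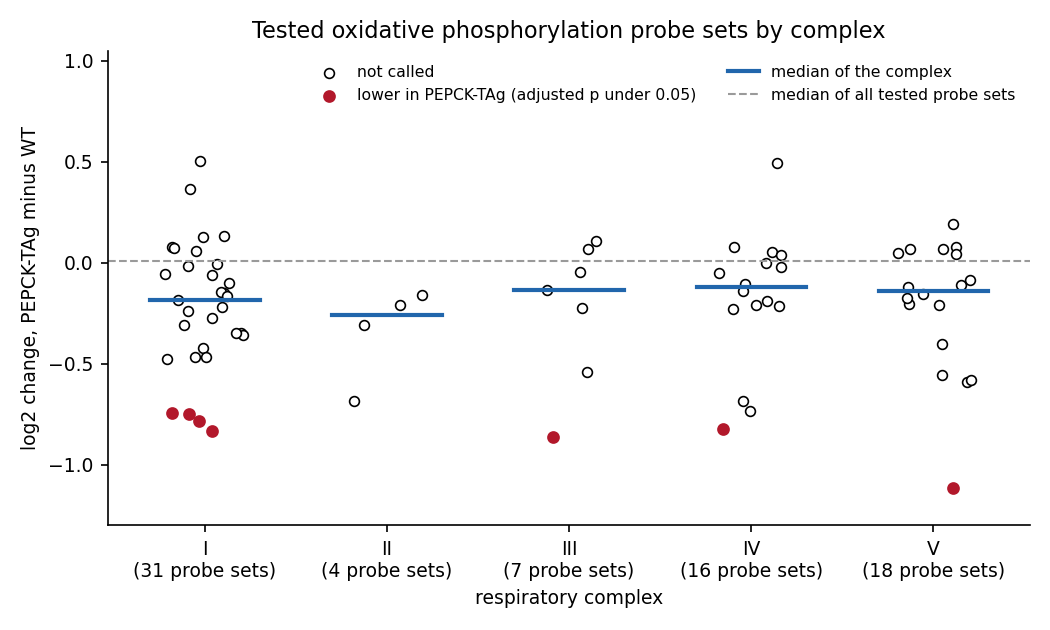
Log2 change, PEPCK-TAg minus WT (vertical axis), of each of the 76 tested probe sets, in columns by respiratory complex I to V. Filled red points are the 7 called lower by limma, open points were not called, blue bars are the median of each complex (-0.12 to -0.26) and the dashed line is the median of all tested probe sets (0.01).

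Most members were bright, and bright probe sets leaned lower as a class. All tested probe sets were split by mean signal into 5 classes of equal size, class 5 being the brightest. Class 5 held 37 of the 76 tested members, with a median log2 change of -0.16 for members and -0.12 for all probe sets. In it 2 members were called lower, and 9.26% of all its probe sets were. Class 4 held 18 members with a median of -0.29, where all probe sets had 0.01. In class 4, 3 members were called lower, beside 2.89% of all. Both PEPCK-TAg signals lay below both WT signals for 19 members of class 5 (51.4%, beside 42.0% of all its probe sets) and 11 of class 4 (61.1%, beside 28.0%). The same held for 4 members of class 3 (50%, beside 23.5%), 2 of class 2 (40%, beside 20.7%) and 3 of class 1 (37.5%, beside 17.4%). Class 3 held 8 members with a median of -0.15, where all probe sets had 0.06, and 2 were called lower beside 1.88% of all. Class 2 held 5 members with a median of 0.07 and class 1 held 8 with a median of -0.16, with limma calling 0 in either, and all probe sets of both classes had medians of 0.06. Brightness moved with the result in this way, and its part in it was not tested.

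**Figure D2:**
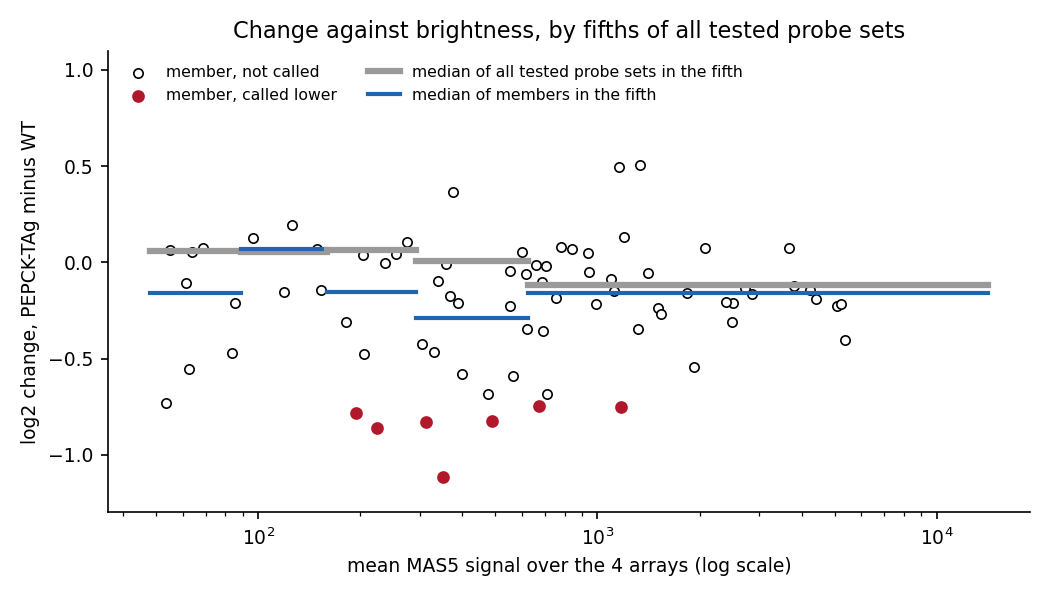
Log2 change, PEPCK-TAg minus WT, of each tested member (vertical axis) against its mean MAS5 signal over the 4 arrays (horizontal axis, log scale). Red points were called lower, open points were not called, and bars span each of 5 equal classes of brightness at the median of members (blue) and of all tested probe sets (grey). In class 5, the brightest, the bars lie at -0.16 and -0.12, and in class 4 at -0.29 and 0.01.

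Complex I is the largest of the complexes and had 42 probe sets of 31 genes, 31 of them tested (29 genes). Its median log2 change was -0.19, 24 probe sets lay below 0 and 7 above, and the groups did not overlap for 16 with PEPCK-TAg lower (26.3% of all tested probe sets) and for 3 with PEPCK-TAg higher (30.2% of all). Of the 4 called lower, Ndufb9 and Ndufb10 are accessory subunits of the membrane arm. Ndufb9 had signals of 919.9 and 891 on the PEPCK-TAg arrays, against 1447 and 1619 on the WT arrays, a fold of 0.595 (log2 change -0.75 ± 0.15 (SE), limma adjusted p = 0.0282). Ndufb10 had 255 and 209 on the PEPCK-TAg arrays, against 436 and 406 on the WT arrays, a fold of 0.562 (log2 change -0.83 ± 0.18, limma adjusted p = 0.0351). For both genes each PEPCK-TAg array was well below each WT array. A second, dim probe set of Ndufb10 stayed under the filter.

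Ndufa3 is another accessory subunit, and Ndufaf4 is no subunit but a factor needed to assemble complex I. Ndufa3 had signals of 528 and 503 on the PEPCK-TAg arrays, against 793 and 959 on the WT arrays (fold 0.597, log2 change -0.74 ± 0.17, limma adjusted p = 0.0409). This probe set ends in _f_at, a suffix the manufacturer gives where probes may also match other transcripts of a family. Ndufaf4 had 156 and 134 on the PEPCK-TAg arrays, against 269 and 249.8 on the WT arrays (fold 0.581, log2 change -0.78 ± 0.18, limma adjusted p = 0.0413). On these probe sets neither gene's groups overlapped. Each of the 2 genes also had a dim probe set under the filter, with overlapping groups. The other assembly factor of the Nduf group that was tested, Ndufaf1, had a log2 change of -0.47 ± 0.23 and was not called (limma adjusted p = 0.252).

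Of the nuclear-encoded core subunits of complex I none was called, and those tested lay below 0. Ndufv1 binds NADH and the flavin, and its log2 change was -0.16 ± 0.14 (limma adjusted p = 0.524). Ndufs1, the large iron-sulfur subunit, had -0.35 ± 0.15 (limma adjusted p = 0.209). Ndufs3, another core subunit, had -0.27 ± 0.15 (limma adjusted p = 0.304). Both tested probe sets of the iron-sulfur subunit Ndufv2 were also below 0, at -0.22 ± 0.16 and -0.48 ± 0.20. For each of these 5 probe sets both PEPCK-TAg signals lay under both WT signals. Among accessory subunits, Ndufa6 (-0.42 ± 0.18), Ndufb8 (-0.36 ± 0.16), Ndufa10 (-0.31 ± 0.17) and both probe sets of Ndufb2 (-0.35 ± 0.16 and -0.24 ± 0.16) had groups that did not overlap, with limma adjusted p-values of 0.191 to 0.407. Close to 0 were Ndufb3 (-0.01 ± 0.19), Ndufb6 (-0.02 ± 0.15), Ndufa2 (-0.06 ± 0.15) and Ndufb7 (-0.06 ± 0.15). The accessory subunits Ndufa1, Ndufa7, Ndufa8, Ndufa9, Ndufa13, Ndufab1, Ndufb5, Ndufb11 and Ndufv3 had overlapping groups, with log2 changes from -0.47 ± 0.33 in Ndufv3 to 0.13 ± 0.16 in Ndufa8.

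Some complex I subunits lay above 0 without passing the test. Ndufa5, singled out after its values were seen because its log2 change was the highest of the 76, had signals of 1724 and 1461 on the PEPCK-TAg arrays, against 1224 and 1016 on the WT arrays (log2 change 0.50 ± 0.17, limma adjusted p = 0.125). Ndufc1 (0.36 ± 0.17, limma adjusted p = 0.224) and Ndufs4 (0.13 ± 0.21, limma adjusted p = 0.759) also had both PEPCK-TAg signals above both WT signals. Ndufa12 and Ndufc2, broadly used subunits, were under the filter on every probe set annotated to them and were not tested.

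**Figure D3:**
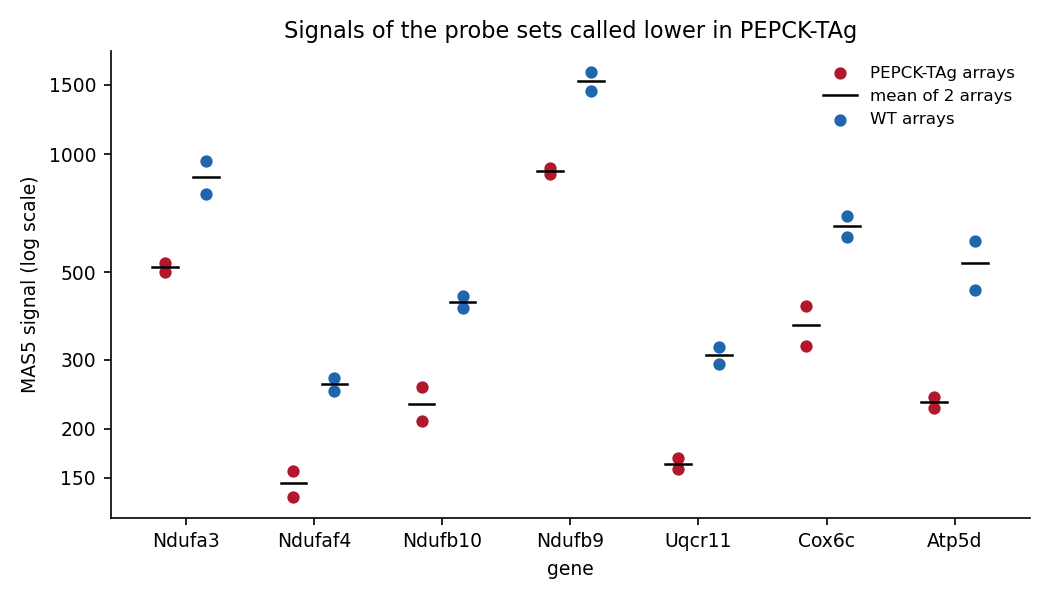
MAS5 signals (vertical axis, log scale) of the 7 probe sets called lower, by gene, with the 2 PEPCK-TAg arrays left of the 2 WT arrays and a black bar at the mean of each pair. In each gene both PEPCK-TAg points lie below both WT points, at 0.461 to 0.597 times the WT level on the log2(signal + 13) scale.

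Complex II, which oxidizes succinate and is also an enzyme of the tricarboxylic acid cycle, had 4 probe sets of 4 genes, all tested. All 4 log2 changes were below 0, with a median of -0.26 that became -0.09 after quantile normalization or cyclic loess and -0.14 without WT 1. None was called by limma, with 1 before adjustment (p under 0.05). Sdha, the flavoprotein that binds succinate, had signals of 462 and 302 on the PEPCK-TAg arrays, against 675 and 547 on the WT arrays (fold 0.623, log2 change -0.68 ± 0.24, limma adjusted p = 0.132). The iron-sulfur subunit Sdhb had 2296 and 2374 on the PEPCK-TAg arrays, against 3067 and 2380.0 on the WT arrays (log2 change -0.21 ± 0.17). Of the membrane anchors, Sdhd had 2329 and 2140.4 on the PEPCK-TAg arrays, against 2883 and 2660.0 on the WT arrays (log2 change -0.31 ± 0.14, limma adjusted p = 0.220). For Sdha, Sdhb and Sdhd the groups did not overlap, with PEPCK-TAg lower (26.3% of all tested probe sets), although for Sdhb PEPCK-TAg 2 and WT 2 were nearly equal. The other anchor, Sdhc, had 1829 and 1661 on the PEPCK-TAg arrays, against 2168 and 1748 on the WT arrays, and here PEPCK-TAg 1 exceeded WT 2.

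Complex III had 7 probe sets of 7 genes, all tested, with 5 below 0, 2 above and a median of -0.13, which became 0.00 after quantile normalization and 0.03 after cyclic loess or without PEPCK-TAg 2. Uqcr11, a small subunit of the complex, fell. Its signals were 168 and 158 on the PEPCK-TAg arrays, against 292 and 322 on the WT arrays (fold 0.550, log2 change -0.86 ± 0.17, limma adjusted p = 0.0266), and each PEPCK-TAg array was below each WT array. Uqcrc1, a core protein on the matrix side, had 1466 and 1739.5 on the PEPCK-TAg arrays, against 2055 and 2643 on the WT arrays and was not called (log2 change -0.54 ± 0.18, limma adjusted p = 0.120). Its partner Uqcrc2 had 2899 and 2322 on the PEPCK-TAg arrays, against 3177 and 2549 on the WT arrays (log2 change -0.13 ± 0.18), with overlapping groups. Uqcrq, which contacts cytochrome b, had 5116 and 4331 on the PEPCK-TAg arrays, against 5756 and 5270.5 on the WT arrays (log2 change -0.23 ± 0.14), with no overlap. Uqcr10 (-0.04 ± 0.19), Uqcrb (0.07 ± 0.15) and the hinge protein Uqcrh (0.11 ± 0.20) had overlapping groups.

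Complex IV, cytochrome c oxidase, had 29 probe sets of 20 genes, of which only 16 (14 genes) were tested. The median was -0.12, with 12 below 0 and 4 above, and the groups did not overlap for 8 with PEPCK-TAg lower (26.3% of all tested probe sets) and for 1 with PEPCK-TAg higher (30.2% of all). One probe set of Cox6c, a small nuclear-encoded subunit, fell. It has the suffix _i_at and had signals of 324 and 411 on the PEPCK-TAg arrays, against 698 and 617 on the WT arrays (fold 0.566, log2 change -0.82 ± 0.18, limma adjusted p = 0.0402). A second probe set, with the suffix _f_at, had 4413 and 3854 on the PEPCK-TAg arrays, against 4966 and 4469 on the WT arrays and was not called (log2 change -0.19 ± 0.14, limma adjusted p = 0.452), and the third was under the filter. In both tested probe sets the PEPCK-TAg signals lay below the WT signals. Both suffixes mark probe sets that did not meet the manufacturer's rule for unique probes. Next by p was Cox8c at 556 and 563 on the PEPCK-TAg arrays, against 1028 and 798 on the WT arrays (fold 0.623, log2 change -0.68 ± 0.18, limma adjusted p = 0.0634), without overlap.

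Several complex IV subunits exist as tissue isoforms, and broadly used forms are given here beside forms known from heart, muscle or testis. The signals did not follow these tissue labels throughout. The broad form Cox8a was under the filter, while 1 probe set of the testis form Cox8c was bright. How far the probe sets follow the amount of each isoform was not tested. Of the COX6A family, Cox6a1, the broadly used form, had 5153 and 4532 on the PEPCK-TAg arrays, against 5272 and 5977 on the WT arrays (log2 change -0.22 ± 0.14). The heart and muscle form Cox6a2 was under the filter at 26.9 and 22.9 on the PEPCK-TAg arrays, against 23.3 and 39.8 on the WT arrays. Of the COX6B family, the broad form Cox6b1 had 145 and 146 on the PEPCK-TAg arrays, against 163 and 160.1 on the WT arrays (log2 change -0.14 ± 0.17). The testis form Cox6b2 had 39.4 and 37.9 on the PEPCK-TAg arrays, against 70.6 and 75.2 on the WT arrays (log2 change -0.73 ± 0.27, limma adjusted p = 0.142). This was its 1 tested probe set, close to the filter's lowest kept signal of 48.1, and its other 2 were under the filter. Both of its PEPCK-TAg signals lay below 48.1. It passed the filter only through the WT arrays, so its lower signal in PEPCK-TAg was partly a condition of being tested. It is among the members counted as lower before adjustment (limma p under 0.05). For Cox6a1, Cox6b1 and Cox6b2 the groups did not overlap.

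Of the COX7A family, Cox7a2 had 858 and 751 on the PEPCK-TAg arrays, against 784 and 737 on the WT arrays (log2 change 0.08 ± 0.16). Its relative Cox7a2l, which takes part in respiratory supercomplexes, had 716 and 682 on the PEPCK-TAg arrays, against 689 and 729.5 on the WT arrays (log2 change -0.02 ± 0.15). Both overlapped between groups, and the heart and muscle form Cox7a1 was under the filter at 4.0 and 6.6 on the PEPCK-TAg arrays, against 15.8 and 10.3 on the WT arrays. Of the COX8 family, the broad form Cox8a was itself under the filter at 18.3 and 19.8 on the PEPCK-TAg arrays, against 15.7 and 7.3 on the WT arrays, and was not tested. The muscle form Cox8b had 77.9 and 78.8 on the PEPCK-TAg arrays, against 98.1 and 87.5 on the WT arrays (log2 change -0.21 ± 0.22) on 1 probe set, without overlap, and was under the filter on the other. The testis form Cox8c had, besides the values above, a probe set under the filter with 3.2 and 3.0 on the PEPCK-TAg arrays, against 5.3 and 3.6 on the WT arrays. The brightness of the Cox8c probe sets thus differed widely, and which of them follows the transcript was not tested. Cox4i1, the broadly used form of its subunit, had 65.3 and 65.6 on the PEPCK-TAg arrays, against 70.3 and 55.6 on the WT arrays on one probe set, with overlap. On the other it had 214 and 200.5 on the PEPCK-TAg arrays, against 179 and 226 on the WT arrays, also with overlap.

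No factor that builds complex IV was called. Cox17, a copper chaperone, had signals of 1428 and 1320.0 on the PEPCK-TAg arrays, against 806 and 1169 on the WT arrays, without overlap, and was not called (log2 change 0.49 ± 0.21, limma adjusted p = 0.187). Cox16 (-0.00 ± 0.18) and Cox18 (-0.10 ± 0.16) overlapped, and Cox14 and Cox20 were under the filter. Of the remaining subunits, Cox5b (-0.05 ± 0.17) overlapped, Cox7b (-0.23 ± 0.16) did not, and Cox5a was under the filter on both of its probe sets.

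Complex V, the ATP synthase, had 22 probe sets of 14 genes, 18 of them tested (13 genes). The median was -0.14, with 12 below 0 and 6 above, and the groups did not overlap for 9 with PEPCK-TAg lower (26.3% of all tested probe sets) and for 1 with PEPCK-TAg higher (30.2% of all). Atp5d, the delta subunit of the central stalk, held the largest change of all members. One of its _f_at probe sets had signals of 242 and 226 on the PEPCK-TAg arrays, against 452 and 603 on the WT arrays (fold 0.461, log2 change -1.12 ± 0.19, limma adjusted p = 0.0189). The gene's other probe sets did not all follow. A second _f_at probe set had 437 and 476 on the PEPCK-TAg arrays, against 714 and 675 on the WT arrays (log2 change -0.59 ± 0.16, limma adjusted p = 0.0657), without overlap. Another _f_at probe set had -0.21 ± 0.20, with overlap. The only one tested without a shared suffix had a log2 change of 0.19 ± 0.19, with both PEPCK-TAg signals above both WT signals. The last was under the filter. Which of them follows the transcript was not tested.

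**Figure D4:**
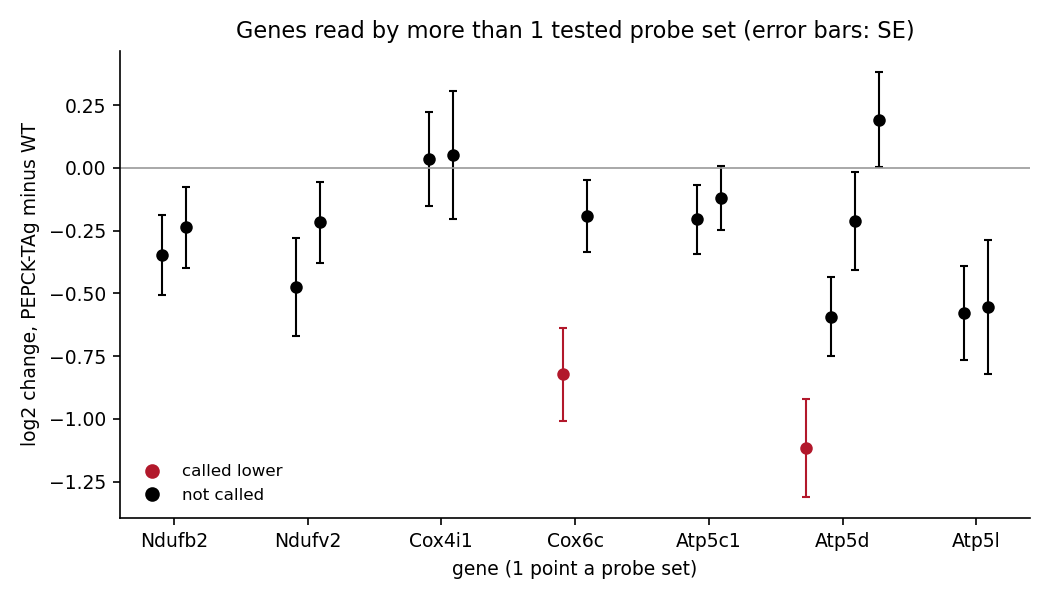
Log2 change, PEPCK-TAg minus WT (vertical axis), with its SE as error bar, for the 7 genes with more than 1 tested probe set; each point is a probe set and red marks a call. The points of Cox6c lie at -0.82 and -0.19 and those of Atp5d between -1.12 and 0.19, while both points of Ndufb2, Ndufv2, Atp5c1 and Atp5l lie below 0 and both of Cox4i1 just above it.

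No probe set of another synthase subunit was called. Atp5a1, the alpha subunit, had 4842 and 4506 on the PEPCK-TAg arrays, against 6432 and 5944 on the WT arrays (fold 0.756, log2 change -0.40 ± 0.13, limma adjusted p = 0.108), without overlap. Atp5l, subunit g of the membrane part, had 358 and 295 on the PEPCK-TAg arrays, against 539.8 and 448 on the WT arrays on one probe set (log2 change -0.58 ± 0.19, limma adjusted p = 0.110). The other had a log2 change of -0.55 ± 0.27, and neither overlapped between groups. Both probe sets of the gamma subunit Atp5c1 were also below 0, at -0.20 ± 0.14 and -0.12 ± 0.13. Of the genes for the c subunit, whose products are identical once processed and form the rotating ring, Atp5g1 had 57.8 and 59.0 on the PEPCK-TAg arrays, against 69.9 and 58.5 on the WT arrays (log2 change -0.11 ± 0.26). Atp5g2 had 375 and 317 on the PEPCK-TAg arrays, against 342 and 446 on the WT arrays (log2 change -0.17 ± 0.20), and both genes overlapped between groups. Atp5o (0.05 ± 0.17), Atp5e (0.07 ± 0.19), Atp5md (0.08 ± 0.17), Atp5mpl (0.04 ± 0.24) and Atp5k (0.07 ± 0.29) had overlapping groups as well. Atp5j (-0.09 ± 0.15) and Atp5pb (-0.15 ± 0.20) did not overlap, with PEPCK-TAg lower. Atp5j2 was under the filter.

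The 28 members under the filter had signals of 1.1 to 58.4 over all arrays and were not tested, which left 9 of the 76 genes without a tested probe set. With 1 probe set a gene, the brightest, 5 of 67 genes were called lower and 0 higher, beside 3.01% lower and 6.83% higher of all 5650 genes. At this level Cox6c and Atp5d were read by probe sets that were not called. Leaving out the 5 tested probe sets of assembly factors gave a median of -0.16 over 71. Leaving out the 24 that end in _f_at, _s_at, _r_at, _g_at or _i_at gave -0.13 over 52. Of the 7 probe sets called lower, 3 carry such a suffix.

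Other mitochondrial genes, read by 1 probe set a gene, had list medians of -0.17 to 0.10. For these lists and the marker lists below, the shares over all 5650 genes read this way were 6.83% called higher and 3.01% called lower. Before adjustment (limma p under 0.05), 15.5% of all tested probe sets were higher and 11.0% lower. Of the carriers that exchange nucleotides and phosphate across the inner membrane and the porins of the outer one, 6 of 11 genes on the array were tested, and 1 rose. Slc25a4, the ADP/ATP carrier best known from heart and muscle, had signals of 742 and 560.3 on the PEPCK-TAg arrays, against 90.4 and 119.5 on the WT arrays. Its fold was 5.62 (log2 change 2.49 ± 0.22, limma adjusted p = 0.00186), the groups lay far apart, and it was called under each of the 13 other settings run, with log2 changes of 2.17 to 2.69. The other carrier of the pair, Slc25a5, had 447 and 483 on the PEPCK-TAg arrays, against 542 and 604 on the WT arrays (log2 change -0.29 ± 0.16, limma adjusted p = 0.304). The porin Vdac2 had 538 and 586 on the PEPCK-TAg arrays, against 418 and 450.2 on the WT arrays (log2 change 0.36 ± 0.16). The median over the 6 genes was 0.10, and -0.04 when arrays were centred on their medians. Of 13 markers of heart and skeletal muscle 4 were tested, with 0 called by limma and 0 before adjustment (p under 0.05). Actc1 had 80.7 and 71.7 on the PEPCK-TAg arrays, against 12.4 and 63.0 on the WT arrays (log2 change 1.02 ± 0.52, limma adjusted p = 0.268). Ckm lay the other way, at 77.9 and 72.0 against 97.3 and 121.0 (log2 change -0.47 ± 0.22, limma adjusted p = 0.243). Both were without overlap, while Myl1 and Mylpf overlapped. Summed signals of all 13, tested or not, were 443 and 451 on the PEPCK-TAg arrays, against 376 and 423 on the WT arrays. Acta1, Myh1, Myh2, Myh4, Myh6, Tnnt3, Tnnc2, Tnni2 and Mb were under the filter.

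Among the genes of the tricarboxylic acid cycle, pyruvate entry and electron carriers, Idh2 alone was called, as higher. Of 17 tested genes of the tricarboxylic acid cycle and pyruvate entry, 1 rose and 0 fell by limma. Of all tested genes, 6.83% were called higher and 3.01% lower. Before adjustment (limma p under 0.05) 4 of the 17 were lower, beside 11.0% of all tested probe sets, and the median log2 change was -0.16. Idh2, the mitochondrial NADP-dependent isocitrate dehydrogenase, had 871 and 949 on the PEPCK-TAg arrays, against 489 and 423 on the WT arrays (log2 change 0.98 ± 0.16, limma adjusted p = 0.0167). The call was lost without PEPCK-TAg 2 (0.0604) or WT 2 (0.0507). Dlat, a subunit of the pyruvate dehydrogenase complex, had 157 and 149 on the PEPCK-TAg arrays, against 222 and 244 on the WT arrays (log2 change -0.57 ± 0.17, limma adjusted p = 0.0941). Pdk1, a kinase that inhibits that complex, had 457 and 542 on the PEPCK-TAg arrays, against 822 and 660.4 on the WT arrays (log2 change -0.55 ± 0.19). Neither overlapped between groups. Of 14 tested electron carriers and their entry routes, 0 were called by limma, with 1 higher and 2 lower before adjustment (p under 0.05). The median of -0.10 became 0.01 after cyclic loess, 0.03 without WT 2 and -0.24 with arrays centred on their medians. Dhodh, which passes electrons from pyrimidine synthesis to ubiquinone, had 273 and 324 on the PEPCK-TAg arrays, against 177 and 171 on the WT arrays (log2 change 0.73 ± 0.18, limma adjusted p = 0.0508). Coq10a, a ubiquinone-binding protein, had 266 and 259 on the PEPCK-TAg arrays, against 439.6 and 366 on the WT arrays (log2 change -0.59 ± 0.17, limma adjusted p = 0.0862). Cyc1, the cytochrome c1 of complex III that the symbol rule leaves out, had 6334 and 6123 on the PEPCK-TAg arrays, against 7836 and 7885 on the WT arrays (log2 change -0.34 ± 0.12, limma adjusted p = 0.138).

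Assembly factors outside the symbol rule numbered 14 tested, of which 1 rose and 0 fell by limma, beside 6.83% and 3.01% of all genes. Before adjustment (limma p under 0.05) 4 were lower, beside 11.0% of all tested probe sets, and the median was -0.17. Acad9, which helps assemble complex I, rose. It had 409 and 348 on the PEPCK-TAg arrays, against 208 and 212 on the WT arrays (log2 change 0.81 ± 0.17, limma adjusted p = 0.0347). It kept its call in 5 of 13 other settings, but in none that left out an array. Uqcc1, an assembly factor of complex III, had 162 and 174 on the PEPCK-TAg arrays, against 435 and 245 on the WT arrays (log2 change -0.91 ± 0.27, limma adjusted p = 0.0913). Surf1, an assembly factor of complex IV, had 220.0 and 254 on the PEPCK-TAg arrays, against 357 and 318 on the WT arrays (log2 change -0.49 ± 0.17). Of 14 tested genes of mitochondrial biogenesis and gene expression, 0 were called by limma, 4 were lower before adjustment (p under 0.05), and the median was -0.09. Among them Yy1 had 718 and 672 on the PEPCK-TAg arrays, against 909 and 991 on the WT arrays (log2 change -0.44 ± 0.15, limma adjusted p = 0.129). The translation elongation factor Gfm1 had 498 and 458 on the PEPCK-TAg arrays, against 664 and 643 on the WT arrays (log2 change -0.44 ± 0.16). The mitochondrial RNA polymerase Polrmt had 164 and 191 on the PEPCK-TAg arrays, against 285 and 236 on the WT arrays (log2 change -0.52 ± 0.19). Groups did not overlap for these 3 genes, and Ppargc1a and Tfam were under the filter.

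Of 20 tested genes of mitochondrial protein import and folding, 0 were called by limma, with 1 lower before adjustment (p under 0.05). Their median of -0.05 became 0.04 without PEPCK-TAg 2 and -0.19 with arrays centred on their medians. Tomm34, a cytosolic cochaperone linked to import, had 121 and 212 on the PEPCK-TAg arrays, against 328 and 257 on the WT arrays (log2 change -0.81 ± 0.28, limma adjusted p = 0.129). The matrix chaperone Hspa9 had 4022 and 3809 on the PEPCK-TAg arrays, against 4679 and 4613 on the WT arrays (log2 change -0.25 ± 0.13). Tomm40, the channel of the outer membrane, had 81.0 and 112 on the PEPCK-TAg arrays, against 29.7 and 81.7 on the WT arrays (log2 change 0.77 ± 0.41). For Tomm40 PEPCK-TAg 1 was below WT 2, and for the other 2 genes the groups did not overlap.

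**Figure D5:**
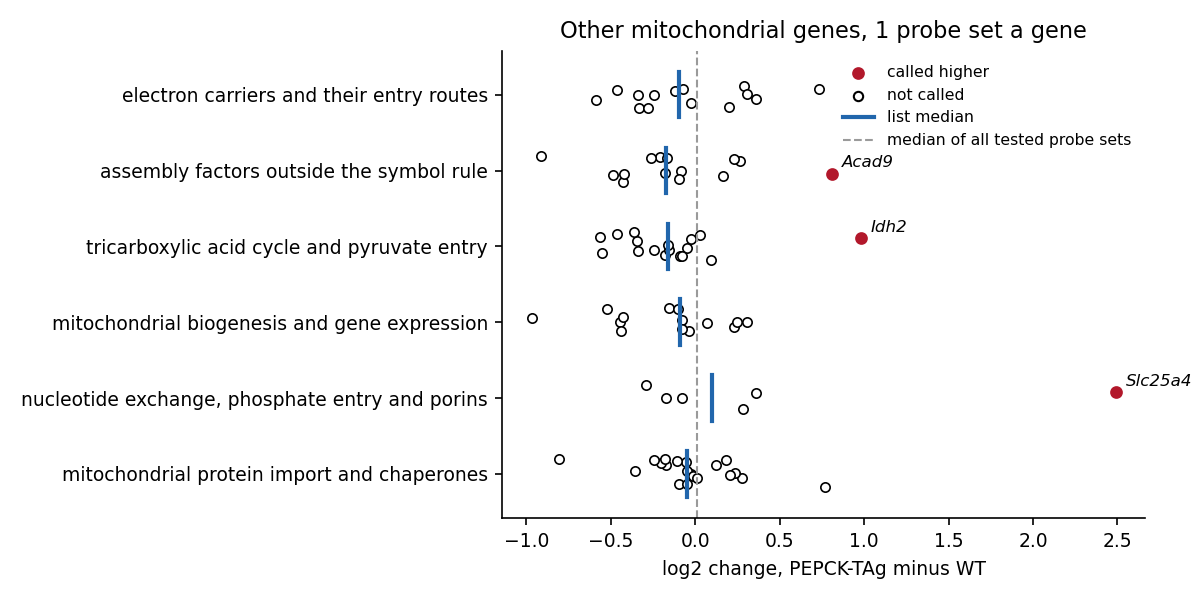
Log2 change, PEPCK-TAg minus WT (horizontal axis), of each tested gene in 6 lists of other mitochondrial genes (rows), with 1 probe set a gene, the list median as a blue bar and the median of all tested probe sets as a dashed line. The list medians lie between -0.17 and 0.10, and the 3 genes called higher, Slc25a4, Idh2 and Acad9, stand right of the rest of their rows.

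Markers of dividing cells and some of macrophages rose in PEPCK-TAg livers, and are given here as measured. All 8 tested markers of dividing cells, of 9 on the array, rose. Summed signals of all 9 were 5327 and 4483 on the PEPCK-TAg arrays, against 663 and 576 on the WT arrays. Of the 8, Mki67, Top2a, Cdk1, Birc5 and Aurka had both WT signals below the lowest kept signal of 48.1. They passed the filter only through the PEPCK-TAg arrays, so their rise was partly a condition of being tested. Without the filter these genes kept their calls and Plk1 lost its own (limma adjusted p = 0.0584). Cdk1, which drives entry into mitosis, had 596 and 518 on the PEPCK-TAg arrays, against 10.6 and 13.6 on the WT arrays (limma adjusted p = 0.000573). Mki67, a marker of proliferation, had 672 and 431 on the PEPCK-TAg arrays, against 5.8 and 8.7 on the WT arrays (limma adjusted p = 0.000754). A second tested probe set of Mki67 had 70.1 and 75.1 on the PEPCK-TAg arrays, against 99.1 and 81.9 on the WT arrays, and was not called (log2 change -0.27 ± 0.23, limma adjusted p = 0.516). The call of Plk1, another of the 8, was lost without PEPCK-TAg 1 or WT 2. Of 9 tested macrophage and neutrophil markers, of 12 on the array, 4 rose (Mpeg1, Cd14, Cd5l and Clec4f). Sums over all 12 were 9236 and 12033 on the PEPCK-TAg arrays, against 2625 and 4678 on the WT arrays. Adgre1, Csf1r, Marco and Lyz2 overlapped between groups and Cd68 did not, with limma adjusted p-values of 0.0582 to 0.714 for these 5, and Itgam, S100a8 and S100a9 were under the filter. The call of Clec4f was lost without PEPCK-TAg 2 or WT 1 and that of Cd5l without PEPCK-TAg 2, and both were lost without the filter or the mean-variance trend. Mpeg1, a pore-forming protein of macrophages, had 3144 and 2776 on the PEPCK-TAg arrays, against 349 and 294 on the WT arrays (limma adjusted p = 0.000643). Of 9 tested hepatocyte markers 0 were called by limma, with 3 lower before adjustment (p under 0.05), and sums of 53210.1 and 48339.5 on the PEPCK-TAg arrays, against 70030.8 and 61364 on the WT arrays. Their median log2 change of -0.32 became 0.00 after quantile normalization. Cyp2e1, a cytochrome P450 of hepatocytes, had 8438 and 8819.6 on the PEPCK-TAg arrays, against 12378 and 11681 on the WT arrays (limma adjusted p = 0.0539). Apoa1, a secreted apolipoprotein, had 9772 and 9645 on the PEPCK-TAg arrays, against 15159.7 and 12806 on the WT arrays (limma adjusted p = 0.0575).

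Of 5 tested stellate cell and matrix markers Col3a1, a fibrillar collagen, rose. Sums over all 8 on the array were 3056 and 4220 on the PEPCK-TAg arrays, against 3054 and 2830 on the WT arrays. The Col3a1 call was lost without PEPCK-TAg 2 (limma adjusted p = 0.0659), WT 1 (0.0914) or WT 2 (0.0661) and without the filter (0.0696). Its other tested probe set was not called (log2 change 0.50 ± 0.33, limma adjusted p = 0.392). Limma called 0 of 7 tested endothelial markers, with 2 lower before adjustment (p under 0.05). It called 0 of 3 of T, NK and B cells (1 lower before adjustment), 0 of 4 of red blood cells (1 lower) and 0 of 2 of fat cells (0 at that level). All 4 bile duct markers on the array were under the filter. The part of these shifts in cell markers in the lower signals of the oxidative phosphorylation genes was not tested.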

How the data were processed

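Liver RNA of 2 PEPCK-TAg and 2 WT samples was measured on MG_U74Av2 arrays, and groups were taken from the sample titles. The deposited values are MAS5 signal intensities on a linear scale, per the submitters' processing notes; neither version nor scaling target is known here. The experiment files deposited with each array hold instrument records and other text, and were read only for batches. Gene symbols are those of the platform annotation, and the Entrez identifiers of all 76 member genes matched RefSeq (GRCm38.p6), with 0 symbols updated. Of the non-control probe sets, 10833 had 1 symbol, 396 several and 1193 none.

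The members and the gene lists were chosen with earlier results of these data known. Of 12488 probe sets, 66 controls were left out, and 7453 whose mean log2(signal + 13) reached the 40th percentile were tested (lowest kept signal 48.1). Group means were compared by limma 3.58.1 under R 4.3.3, two-sided, using lmFit and then eBayes with its trend option (2 residual and 4.61 prior degrees of freedom), with Benjamini-Hochberg adjustment over all tested probe sets. The script was checked on simulated data. Fold changes are on the log2(signal + 13) scale and understate the change of dim probe sets, and the number of arrays limits the precision. Array values were given for members past the threshold, up to 4 of smallest p in each complex and the isoform families, and in each list for genes past the threshold and up to 3 (pathways) or 2 (markers) of smallest p; where a list held more called markers than could be described they are given by name or count. Other offsets, filters, scalings, a fit without the trend, a replicate block and leaving out each array were tried as alternatives. So were 1 probe set a gene, and members without assembly factors or without the suffixes _f_at, _s_at, _r_at, _g_at and _i_at.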

Additional observations from a re-analysis of the deposited data

How the results depend on the processing

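Over the alternatives run, no called member changed sign and the count of members called higher stayed at 0. The count called lower, 7, was 2 without the filter on dim probe sets, where 104 members were tested, and 2 without the mean-variance trend. It was 9 with arrays centred on their medians, 5 with 1 probe set a gene, and 7 with an offset of 1 or 50, a filter at the 60th percentile, quantile normalization or cyclic loess. Leaving out 1 array gave 0 to 1. The calls of Ndufb9, Ndufb10, Ndufa3, Ndufaf4 and Uqcr11 were lost without any one array, that of Cox6c without PEPCK-TAg 1, WT 1 or WT 2, and that of Atp5d without PEPCK-TAg 2 (adjusted p = 0.0504) or WT 2 (0.0514); fewer samples were then in the fit. The log2 changes of these 7 probe sets ranged from -1.32 to -0.61 over all settings. The members' median of -0.16 was -0.31 with arrays centred on their medians, where that of all tested probe sets was -0.14. It was -0.066 after cyclic loess, and -0.23 to -0.11 when 1 array was left out. A fit with the replicate number as a block called 11 members lower, adding Sdha, Uqcrc1, Cox8c and Atp5a1; same-numbered arrays deviated together with r = 0.181 over 7453 probe sets, but with 2 pairs they share only a number. The causes of these shifts were not tested. The sources used here give no detection calls, so how far the 28 members under the filter stood above background was not tested.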
